A study of Mus musculus with 10 samples.

Results

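Ebpl and 7 genes of sterol synthesis, Ebp, Hmgcs1, Sqle, Idi1, Fdft1, Cyp51 and Insig1, were followed in the mouse retina. They were chosen by gene name, and each of the 8 had 1 row among the 35275 genes counted. The donors were C57BL/6 animals, 10 to 12 weeks of age. Of the 10 libraries, 5 followed 11 days of vigabatrin (140 mg/kg/day, by subcutaneous osmotic pump) and 5 came from vehicle animals. Vigabatrin irreversibly inhibits GABA transaminase and is used against epilepsy. The titles of the controls say untreated where their treatment label says vehicle. No label ties a library to an animal, so the spread between libraries may be partly technical. Libraries are called here by group and title number. Vehicle 2345 is singled out throughout, because it is the only vehicle library with a title number above 2000, as all 5 vigabatrin libraries have; what the numbers stand for is not labelled. The members were picked with earlier results of these libraries known: Ebpl lay among the genes with the smallest p-values for the drug comparison, and vehicle 2345 stood apart for it. Their drug differences are therefore given as a description, and where a count of members past a threshold is printed, it supports nothing.

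Cholesterol is built from acetyl-CoA through mevalonate, isoprenoids, squalene and lanosterol. When membrane sterol is scarce, the transcription factor SREBP-2 is released from the endoplasmic reticulum and raises transcription of most enzymes of the pathway, and INSIG proteins hold it back when sterol is plentiful. Photoreceptor and neuronal membranes are rich in cholesterol, and the retina both makes it and takes it up. Ebp encodes the sterol isomerase that shifts a double bond late in the pathway, and its relative Ebpl encodes a membrane protein of the same family; for human EBPL, no such isomerase activity was found.

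The upstream sequences of 3 genes are shown because these genes behaved differently across the libraries: Ebpl, which had its lowest values in the vigabatrin libraries and vehicle 2345; its relative Ebp; and Hmgcs1, which had higher values in those 6 libraries than in the other 4. RefSeq promoter windows (GRCm38.p6, 250 bases before to 50 after an annotated start) were found for 6 of the 8 members; Sqle and Fdft1 had no entry. The 300-base windows are chr14:61360396-61360695 for Ebpl and chrX:8193463-8193762 for Ebp, both on the minus strand, and chr13:119690101-119690400 on the plus strand for Hmgcs1. Capitals mark matches on either strand to TCACNCCAC, a form of the sterol regulatory element that SREBP binds, to GGGCGG, the GC box, or to CCAAT, the core of the NF-Y site.
Ebpl: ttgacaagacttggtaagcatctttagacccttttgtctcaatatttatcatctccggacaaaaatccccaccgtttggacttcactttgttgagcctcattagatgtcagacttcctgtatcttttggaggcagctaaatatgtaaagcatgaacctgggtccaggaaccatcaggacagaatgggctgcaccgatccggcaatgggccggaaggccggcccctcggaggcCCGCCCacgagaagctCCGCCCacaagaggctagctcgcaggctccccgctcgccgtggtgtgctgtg
Ebp: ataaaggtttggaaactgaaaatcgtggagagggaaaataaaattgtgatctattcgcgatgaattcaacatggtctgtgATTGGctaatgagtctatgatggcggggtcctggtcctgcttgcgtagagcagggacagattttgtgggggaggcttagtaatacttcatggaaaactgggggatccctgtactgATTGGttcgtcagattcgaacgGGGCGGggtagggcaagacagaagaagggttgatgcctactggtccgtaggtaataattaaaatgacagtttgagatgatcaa
Hmgcs1: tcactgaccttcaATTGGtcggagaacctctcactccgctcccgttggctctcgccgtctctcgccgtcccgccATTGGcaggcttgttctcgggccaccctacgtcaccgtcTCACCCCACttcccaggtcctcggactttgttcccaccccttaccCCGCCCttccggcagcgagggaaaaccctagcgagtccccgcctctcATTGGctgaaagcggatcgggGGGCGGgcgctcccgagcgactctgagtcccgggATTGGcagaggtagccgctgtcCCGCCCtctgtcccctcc
TCACNCCAC occurred once in the Hmgcs1 window, starting at position -137 from the start site, and in none of the other 5 member windows. It was present in 1.22% of the 27025 gene windows. CCAAT had 4 matches in Hmgcs1, 2 each in Ebp and Idi1, 1 each in Cyp51 and Insig1, and 0 in Ebpl, against 37.9% of all windows with at least 1. All 6 member windows held GGGCGG (Ebpl at -18 and -2), as did 35.9% of all windows. A missing match says only that these letters are not in this window.

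Library totals ranged from 36056135 in vehicle 2345 to 54052502 in vigabatrin 2429, and 17435 genes were tested. Summed rod markers were 51700 to 56500 CPM (reads scaled to a common library size by TMM) in vigabatrin libraries and 52700 to 57700 in vehicle libraries, and all 6 were above 0 in every library. Müller glia markers summed to 2970 to 3380 CPM in vigabatrin libraries and 3250 to 3660 in vehicle libraries, and the part of that difference in the sterol genes was not tested. Pigment epithelium markers summed to 6.15 to 49.0 CPM in vigabatrin libraries and 12.9 to 269 CPM in vehicle libraries. Lens markers took 1.15% to 1.73% of counts in vigabatrin 2344 and 2429 and vehicle 835 and 1582, and at most 0.0851% in the other 6 libraries.

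Ebpl (ENSMUSG00000021928) occupies chr14:61339763-61360445 in mm10, on the minus strand. In GENCODE M21 a small nuclear RNA gene, Gm25716, overlaps it on the same strand over 104 bases and has no row among the counts. Ebpl measured 68.1, 73.1, 74.9, 73.3 and 66.8 CPM in vigabatrin 2344, 2347, 2349, 2428 and 2429. In vehicle 832, 835, 1580, 1582 and 2345 it measured 108, 99.5, 104, 104 and 75.4 CPM. The groups did not overlap, but only just: vehicle 2345 lay above the highest vigabatrin library, at 74.9 CPM, and far below the other 4 vehicle libraries. The means were 71.2 ± 3.56 CPM after vigabatrin and 98.3 ± 13.1 CPM in vehicle (SD, n = 5 each), a log2 fold change of -0.46 (SE 0.09). Fewer cells that contain the transcript and less of it per cell cannot be told apart in such whole-retina RNA.

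Most of the difference in Ebpl lay between vehicle 2345 and the other vehicle libraries. Vehicle 2345 had 72.5% of the mean of the other 4 (104 ± 3.38 CPM, SD, n = 4), and the vigabatrin libraries had 68.5% of it. When a second term stood for the title number range, the log2 difference was -0.08 (SE 0.07) for vigabatrin minus vehicle 2345 and -0.46 (SE 0.07) for vehicle 2345 minus the other 4 vehicle libraries. Of all tested genes, 9.18% were at least as low as Ebpl for vehicle 2345 minus the other 4. Without vehicle 2345 the drug difference was -0.55 (SE 0.04), and in that fit, unlike that of all 10 libraries, Ebpl was past the edgeR threshold (adjusted p = 0.00249). That fit called 13 genes higher and 26 lower, Ebpl among them, of 17620 tested. The rule that chose the gene used this comparison, so nothing is read from the call. For the 4 vehicle libraries numbered below 2000, drug and title number range cannot be told apart, and the value within the upper range rests on vehicle 2345 alone. That library was also the shallowest of the 10. Its summed markers lay inside the range of the other 4 vehicle libraries for 7 of 11 cell types, among them rods at 56800 CPM and lens at 438 CPM. They lay outside it for Müller glia (3250 CPM against 3330 to 3660), amacrine cells (478 against 441 to 461), microglia (13.5 against 11.4 to 12.8) and cornea (0.773 against 1.3 to 12.6), and their part in the Ebpl value was not tested. Ebpl spanned 66.8 to 104 CPM in the 4 lens-rich libraries and 73.1 to 108 CPM in the other 6. Without the lens-rich libraries its log2 fold change was -0.38 (SE 0.12).

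**Figure D1:**
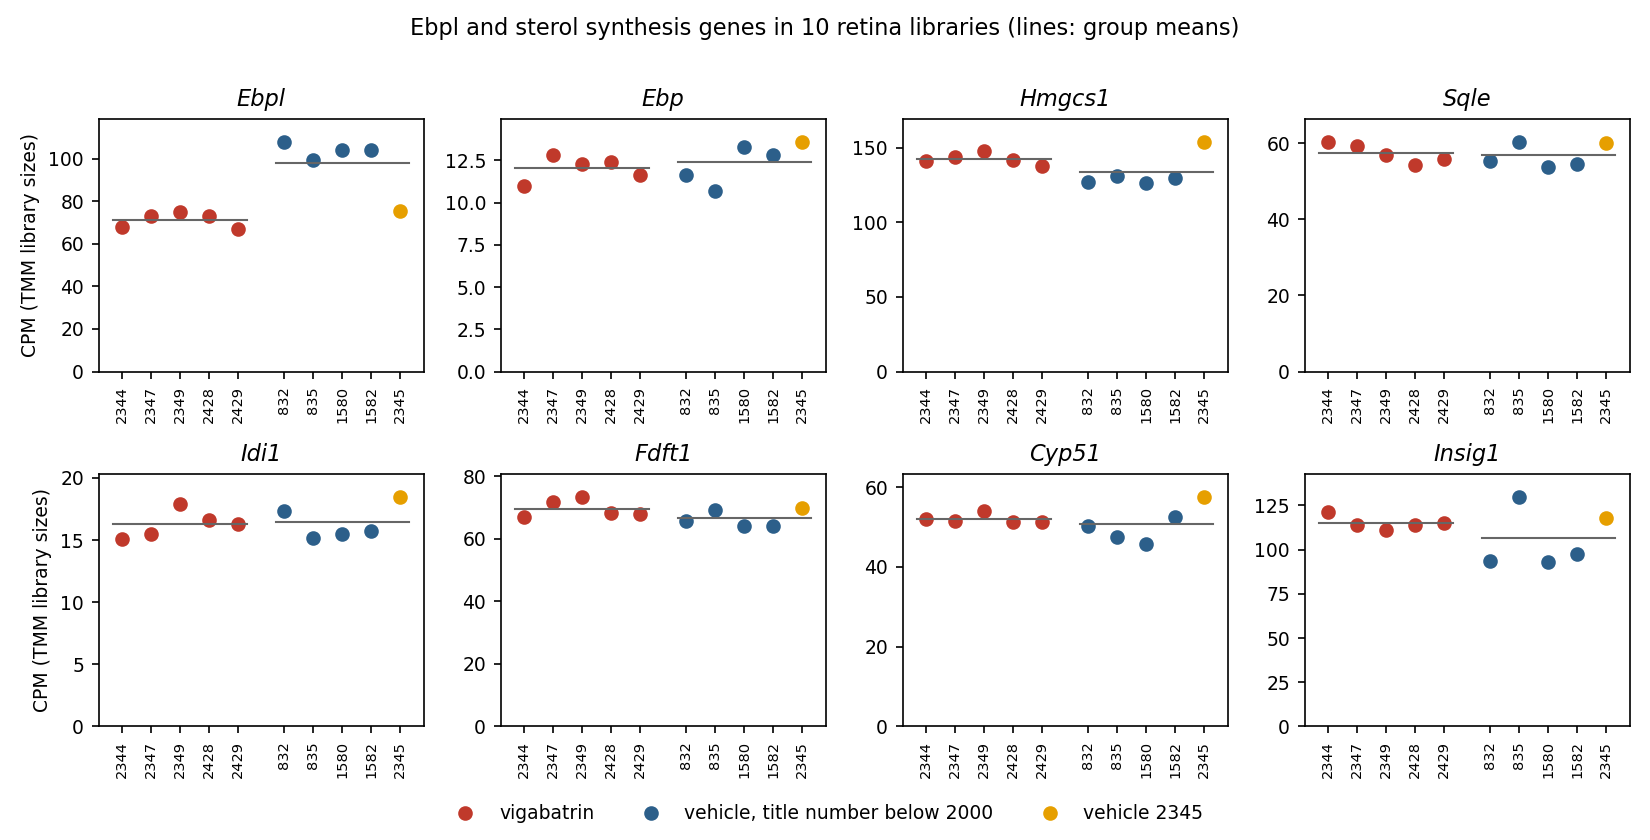
CPM of each member (vertical axes, from 0) in the 5 vigabatrin libraries (left in each panel) and the 5 vehicle libraries (right), 1 point a library, with vehicle 2345 in orange and lines at the group means. Ebpl in vehicle 2345, at 75.4 CPM, sits beside the vigabatrin libraries, while Hmgcs1 in that library, at 154 CPM, is the highest of the 10.

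Of the 8 members, 0 passed the threshold of adjusted p under 0.05 in the edgeR quasi-likelihood test over all genes. Over all 17435 genes, 1 was called (0.00574%), St8sia2, which is higher after vigabatrin. At an unadjusted p under 0.05 there was 1 member, Ebpl, and there were 1284 of the 17435 tested genes. DESeq2 called 1 member, also Ebpl, and over all its genes it called 36 higher and 49 lower. It gave a p-value for 26268 genes, and how many of them had an adjusted p was not recorded. Limma-voom called 0 members, and over all 17435 genes it called 3 higher and 0 lower. Ebpl was also the only member with separate groups. Of all tested genes, 1.48% had separate groups, 0.631% with lower and 0.849% with higher values after vigabatrin. Nothing is read from these counts, since this comparison chose the members. Over the title numbers, Ebpl was lower in all 6 libraries above 2000 than in all 4 below, as were 2.25% of genes. Hmgcs1 was higher in all 6, as were 1.8% of genes. The other 6 members overlapped between the title ranges.

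Hmgcs1 encodes the cytosolic HMG-CoA synthase at the entry to the mevalonate pathway. Its values were 141, 144, 148, 142 and 138 CPM in vigabatrin 2344, 2347, 2349, 2428 and 2429, against 127, 131, 126, 130 and 154 CPM in vehicle 832, 835, 1580, 1582 and 2345. Every vigabatrin library lay above the 4 lower-numbered vehicle libraries and below vehicle 2345, so the groups overlapped through that library. The log2 fold change was 0.09 (SE 0.05) over all libraries, -0.11 (SE 0.05) against vehicle 2345 alone and 0.15 without it. Vehicle 2345 itself was 0.27 (SE 0.05) above the other 4 on the log2 scale. Hmgcs1 overlaps an antisense gene, Gm48342, over 6190 bases of gene span in GENCODE M21, introns included. The longest match between their transcripts was 462 bases. Without the strand setting, reads from transcript sequence that the pair shares cannot be told apart.

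Idi1, the isomerase that makes dimethylallyl diphosphate from isopentenyl diphosphate, differed little between the groups. It measured 15.1, 15.5, 17.9, 16.6 and 16.3 CPM in the 5 vigabatrin libraries in the same order, and 17.3, 15.2, 15.5, 15.7 and 18.5 CPM in the 5 vehicle libraries. The groups overlapped (log2 fold change -0.01, SE 0.07), with the highest value again in vehicle 2345. GENCODE M21 holds 2 processed pseudogenes of at least 95% identity to Idi1 over 200 bases or more, one of them, Gm13502, identical over 684 bases. That copy had at most 9 counts in any library, while Gm35570 was not matched to the count table. How reads shared with these copies were counted is not given in the sources used here. Idi1 also overlaps Gm48574 on the opposite strand over 323 bases.

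Fdft1 and Sqle encode squalene synthase and squalene epoxidase, the steps that commit isoprenoids to sterols. Fdft1 measured 66.9, 71.7, 73.5, 68.2 and 67.9 CPM in the vigabatrin libraries and 65.6, 69.2, 64.0, 64.1 and 70.0 CPM in the vehicle libraries (log2 fold change 0.06, SE 0.04). For Sqle the vigabatrin libraries had 60.4, 59.2, 56.9, 54.4 and 55.8 CPM and the vehicle libraries 55.3, 60.3, 53.8, 54.5 and 60.0 CPM (log2 fold change 0.01, SE 0.05). Both genes overlapped between the groups, and both were among the steadier genes: the highest library exceeded the lowest by a factor of 1.15 for Fdft1 and 1.12 for Sqle, against 1.61 for Ebpl. Fdft1 overlaps the abundant gene Ctsb on the opposite strand over 774 bases and has a pseudogene copy, Gm6781, with up to 43 counts, so its level is uncertain without the strand setting.

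Cyp51, which removes a methyl group from lanosterol, and Ebp act later in the pathway. Cyp51 had 51.9, 51.6, 54.0, 51.2 and 51.2 CPM in the vigabatrin libraries and 50.3, 47.4, 45.8, 52.6 and 57.6 CPM in the vehicle libraries (log2 fold change 0.04, SE 0.06). The vehicle libraries spread on both sides of the vigabatrin libraries, from vehicle 1580 at the low end to vehicle 2345 at the high end. Ebp measured 11.0, 12.8, 12.3, 12.4 and 11.6 CPM in the vigabatrin libraries and 11.6, 10.7, 13.3, 12.8 and 13.6 CPM in the vehicle libraries (log2 fold change -0.04, SE 0.08). The Ebp groups overlapped fully, and vehicle 2345 was again the highest library. Cyp51 overlaps Akap9 on the opposite strand over 166 bases.

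Insig1, which encodes the sterol-sensitive retention protein and is itself a target of SREBP, varied most among the vehicle libraries. It measured 121, 114, 111, 114 and 115 CPM in vigabatrin 2344, 2347, 2349, 2428 and 2429, and 93.4, 130, 92.9, 97.5 and 118 CPM in vehicle 832, 835, 1580, 1582 and 2345. Vehicle 835 and 2345 were high and the other 3 vehicle libraries low, below every vigabatrin library. The coefficient of variation was 3.07% after vigabatrin and 15.7% in vehicle, and the log2 fold change was 0.11 (SE 0.09). It was 0.20 (SE 0.07) without vehicle 835 and 0.20 (SE 0.06) by limma-voom. Vehicle 835 also held the largest sum of pigment epithelium markers, 269 CPM, and its part in the Insig1 value was not tested.

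**Figure D2:**
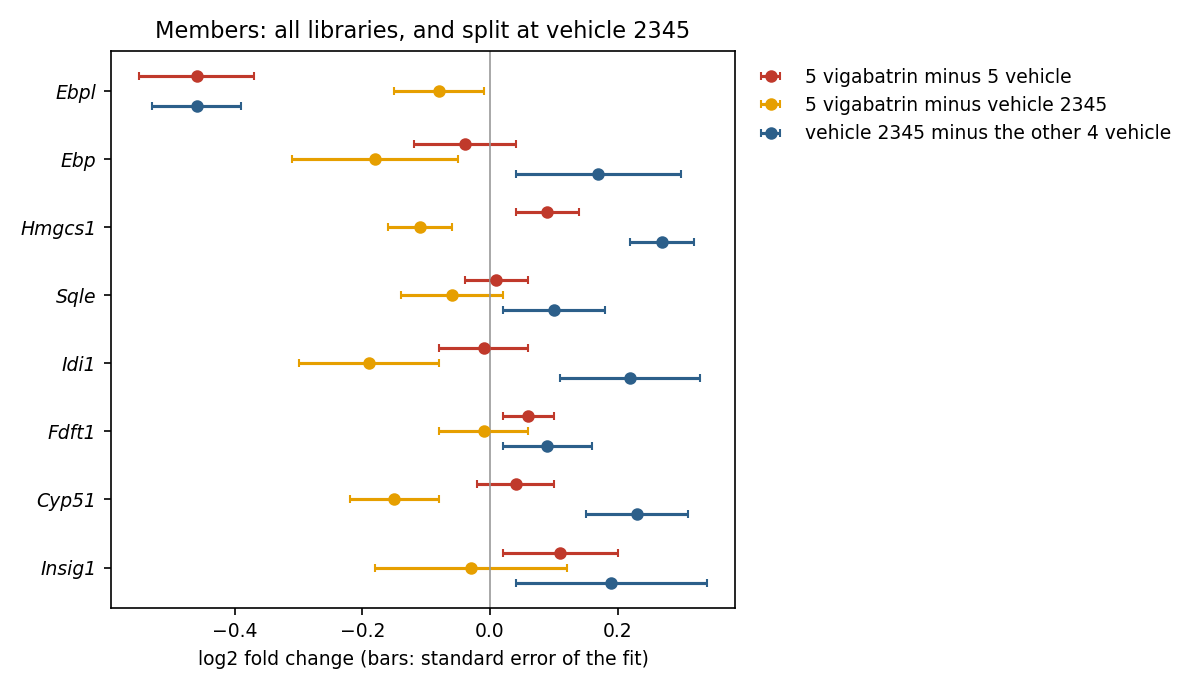
Log2 differences (horizontal axis) with the standard error of the fit for each member: 5 vigabatrin minus 5 vehicle libraries (red), 5 vigabatrin libraries minus vehicle 2345 (orange) and vehicle 2345 minus the other 4 vehicle libraries (blue). The blue value is -0.46 for Ebpl and lies between 0.09 and 0.27 for the other 7 members.

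Within the vigabatrin group the members varied little. Their coefficients of variation ran from 2.25% for Cyp51 to 6.69% for Idi1, with 5.0% for Ebpl; counting error alone would give 2.01%, 3.59% and 1.72%. In vehicle they ran from 4.31% for Fdft1 to 15.7% for Insig1. Across all 10 libraries the root mean square deviation of log2 CPM from the gene's own mean was 0.267 for Ebpl and 0.063 to 0.155 for the other members, against a median of 0.093 over 10280 genes with a mean of at least 10 CPM. Ebpl was more variable than 95% of those genes and Fdft1 more than 19.2%. The place of Ebpl comes from the same values that helped to choose it, so nothing is read from it.

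In vehicle 2345 all 7 other members lay above their own 10-library mean, by 0.04 to 0.18 on the log2 scale, while Ebpl lay at -0.14. In vehicle 832, 835, 1580 and 1582, 1, 3, 1 and 2 of the 7 were above their mean, and Ebpl lay at 0.37, 0.26, 0.33 and 0.33. The vigabatrin libraries had 2 to 6 of the 7 above their mean, with 6 in vigabatrin 2347 and 2349. The share of all tested genes above their own mean in each library was not worked out, so nothing is read from these counts. Vehicle 2345 exceeded all 4 other vehicle libraries for 5 of the 7 members, where this held for 19.8% of all tested genes; the exceptions were Sqle and Insig1, for which vehicle 835 was higher. It was below all 4 others for Ebpl, as for 20.1% of tested genes. The members are genes of 1 pathway and are not independent of each other. When title number range entered the fit of the whole table beside treatment, 0 genes passed the edgeR threshold for vehicle 2345 against the other 4, with 979 at an unadjusted p under 0.05, and 0 passed for vigabatrin against vehicle 2345, with 343.

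Levels per gene length were compared between members as RPKM, which is CPM divided by the deposited gene length in kilobases. In vehicle, Ebpl had the highest mean at 47.3 ± 6.32 RPKM, followed by Hmgcs1 at 41.3 ± 3.64 and Insig1 at 39.4 ± 6.19 RPKM (SD, n = 5). The ranges of these 3 overlapped. Fdft1, at 23.3 ± 1.0 RPKM, was below all of them, Cyp51 and Sqle followed at 12.9 ± 1.18 and 12.7 ± 0.693 RPKM with overlapping ranges, and Ebp and Idi1 were lowest at 7.12 ± 0.694 and 5.43 ± 0.470 RPKM (SD, n = 5 each). The lowest Ebp library, at 6.16 RPKM, was barely above the highest Idi1 library, at 6.13 RPKM.

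The order at the top was different after vigabatrin, where Hmgcs1 averaged 44.1 ± 1.13, Insig1 42.7 ± 1.31 and Ebpl 34.3 ± 1.71 RPKM (SD, n = 5 each). All 5 vigabatrin libraries had Ebpl below both other genes. Vehicle 2345 had the vigabatrin order, with 47.8 RPKM for Hmgcs1, 43.7 for Insig1 and 36.3 for Ebpl, whereas Ebpl came first in vehicle 832, 1580 and 1582 and stood beside Insig1 in vehicle 835 (47.9 against 48.2 RPKM). The members below the top 3 kept their ranks between the groups. Ebpl exceeded Ebp per length by a factor of 4.97 ± 0.178 after vigabatrin and 6.73 ± 1.28 in vehicle (SD, n = 5 each), with 4.64 in vehicle 2345 and 6.58 to 7.78 in the other 4. RPKM is CPM divided by a fixed length. The changes in order and in this factor mostly restate the Ebpl difference that helped to choose the gene, so nothing further is read from them.

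**Figure D3:**
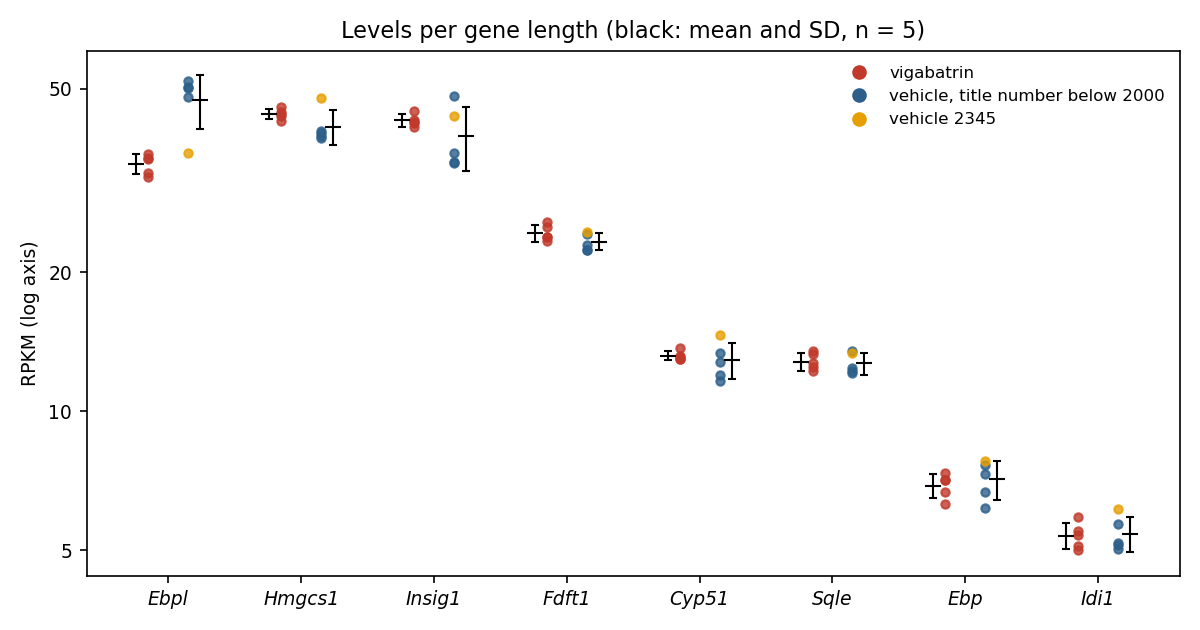
Levels per gene length (RPKM, log axis) of the 8 members in order of their vehicle mean, with vigabatrin left of vehicle, 1 point a library, vehicle 2345 in orange, and the mean and SD of 5 libraries in black. Ebpl is first in vehicle at 47.3 RPKM and below Hmgcs1 and Insig1 after vigabatrin at 34.3 RPKM.

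The nearest tested gene to Ebpl in the genome had a smaller difference, in the same direction over all libraries. Kpna3, an importin gene on the same strand whose near end lies 4741 bases from Ebpl, measured 72.3 ± 2.49 CPM after vigabatrin and 78.3 ± 9.53 CPM in vehicle (SD, n = 5 each), with 70.7 CPM in vehicle 2345 and 94.6 CPM in vehicle 835. The Kpna3 groups overlapped (log2 fold change -0.12, SE 0.07, edgeR adjusted p = 0.769), and vehicle 2345 was its lowest vehicle library, as for Ebpl. Of the 3 tested genes on each side, 0 of 6 passed the edgeR threshold. An unadjusted p under 0.05 was found for 1 of the 6, and for 1284 of the 17435 tested genes. The 1 neighbour was Arl11, a small GTPase gene, and it was scarce. It measured 0.259 ± 0.107 CPM after vigabatrin and 0.705 ± 0.639 CPM in vehicle (SD, n = 5 each). Vehicle 835 was its highest library, at 1.85 CPM. The log2 fold change of Arl11 was -1.46 (SE 0.52) over all libraries and -0.705 (SE 0.29) without vehicle 835. The log2 fold changes of Spryd7 and Trim13 were 0.04 and 0.14, and that of the scarce RP24-188N22.2 was -0.91 (SE 0.77).

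The genes most like Ebpl were sought by the root mean square difference between log2 CPM values, each centred on the gene's mean over the 10 libraries. The closest 5 were Acsl3, a long-chain acyl-CoA synthetase (0.087), Gnb5, a G protein beta subunit (0.101), Crlf3 (0.103), Spc25, a kinetochore subunit (0.107), and Guca1a, the calcium sensor of photoreceptor guanylate cyclase (0.113). Each was lower in all 6 libraries numbered above 2000 than in all 4 below, as were 2.25% of tested genes. They were picked for likeness to Ebpl, which has that split, so nothing further is read from their sharing it. They lie on 5 chromosomes other than that of Ebpl. Acsl3 measured 227 ± 10.6 CPM after vigabatrin and 286 ± 28.7 CPM in vehicle (SD, n = 5 each), with 235 CPM in vehicle 2345. Spc25 stood between the groups in vehicle 2345, at 80.8 CPM, against 65.0 to 72.4 in vigabatrin libraries and 83.5 to 103 in the other vehicle libraries. None of the sterol enzymes was among the 5.

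For Hmgcs1 the closest 5 were Abca8a, Ogfrl1, Lrrc4b, Alkbh5 and Fasn, with root mean square differences of 0.043 to 0.046; Hmgcs1 itself deviated by 0.094, so this likeness is looser for its size than that of Ebpl. Fasn, the fatty acid synthase, measured 349, 334, 338, 336 and 330 CPM in the vigabatrin libraries and 312, 300, 310, 291 and 363 CPM in the vehicle libraries. As for Hmgcs1, every vigabatrin value lay above those of the 4 lower-numbered vehicle libraries and below that of vehicle 2345. Fasn was picked here for likeness to Hmgcs1, so nothing further is read from this shared order.

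**Figure D4:**
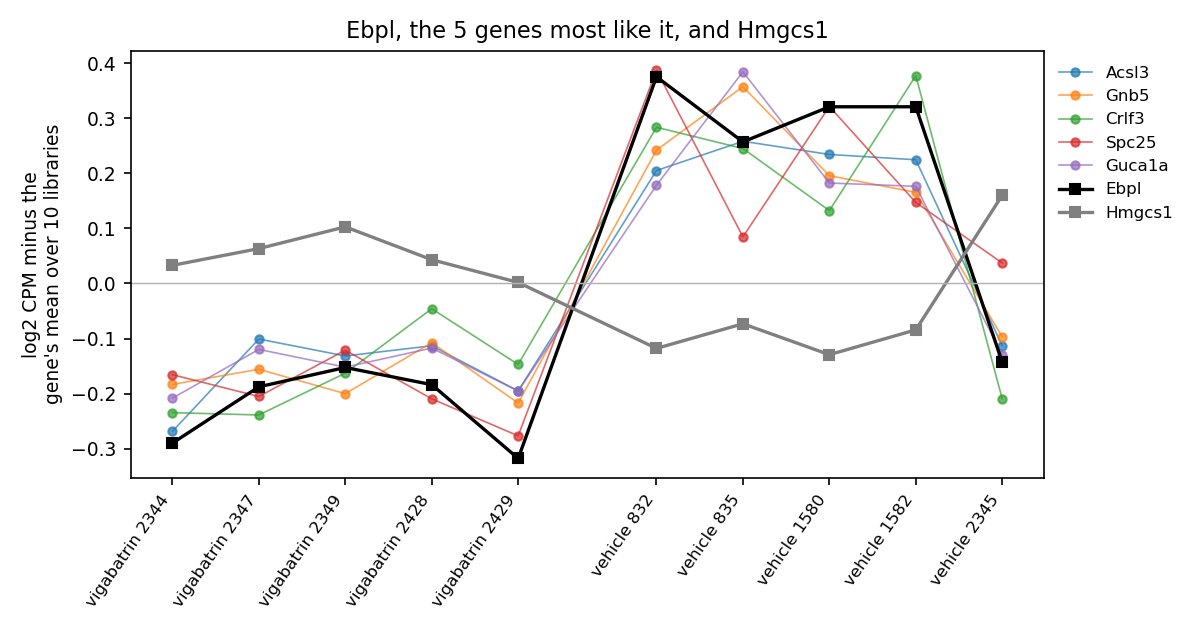
Log2 CPM minus each gene's mean over the 10 libraries (vertical axis) for Ebpl (black), the 5 genes most like it (thin lines) and Hmgcs1 (grey), with vigabatrin libraries left of vehicle libraries. Ebpl lies between -0.32 and -0.14 in the vigabatrin libraries and vehicle 2345 and between 0.26 and 0.37 in the other 4 vehicle libraries; Hmgcs1 is lowest in those 4 and highest in vehicle 2345, at 0.16.

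The rest of the pathway showed no gene past the threshold. Of 54 further genes in 8 lists, all tested, 0 passed the edgeR test in either direction (adjusted p under 0.05 over all genes, where 0.00574% of genes passed). An unadjusted p under 0.05 was found for 1 of the 54, and for 1284 of the 17435 tested genes. DESeq2 and limma-voom also called 0 of the 54. The median log2 fold change of the 54 was 0.01, against -0.001 over all tested genes.

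Among 6 mevalonate pathway genes, 4 had the higher mean after vigabatrin and 2 the lower, with a median log2 fold change of 0.03 and a range of -0.01 to 0.10. Mvd and Acat2 had 0.10 and 0.09, and Mvk 0.04. In vehicle 2345 all 6 exceeded the other 4 vehicle libraries, as 19.8% of tested genes did. Among 9 genes from lanosterol to cholesterol 6 had the higher mean and 3 the lower (median 0.01); Lbr, a sterol reductase of the nuclear envelope, had -0.07 and Dhcr7 0.05. Here 5 of 9 were highest of the vehicle group in vehicle 2345 and 2 of 9 lowest.

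The 6 genes of sterol sensing had log2 fold changes of -0.06 to 0.05, with 239 CPM after vigabatrin and 233 CPM in vehicle for Srebf2, which encodes SREBP-2 (0.04, SE 0.04), and 0.05 and 0.04 for the SREBP-cleaving proteases Mbtps1 and Mbtps2. Of 5 genes of sterol uptake and transport, 4 had the higher mean after vigabatrin; Stard4, a sterol carrier, had 0.12, Npc1 0.03 and Npc2 -0.12 (SE 0.16). In the 10 genes of sterol export and turnover 7 had the lower mean (median -0.08), among them Cyp27a1, a sterol hydroxylase, at 7.26 CPM after vigabatrin and 8.61 CPM in vehicle (-0.25, SE 0.12, edgeR adjusted p = 0.688) and Nr1h3, the nuclear receptor LXR alpha, at -0.16. Without the 4 lens-rich libraries Cyp27a1 had a log2 fold change of -0.077 and Nr1h3 of -0.248. Against vehicle 2345 alone Cyp27a1 had 0.039, and without vigabatrin 2428 Nr1h3 had -0.08. Cyp46a1, the neuronal cholesterol hydroxylase, had 0.05.

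Isoprenoid branch genes were split, 3 of 6 on each side (median 0.01), with Ggps1 at 0.13 and Coq2 and Dhdds at -0.04 each. Of 9 fatty acid synthesis genes, 5 had the higher mean (median 0.05), including Fasn and Elovl6 at 0.10 and 0.09 and Scd2 at 0.06. The 3 other genes of the protein family of Ebp and Ebpl, Tm6sf1, Tmem97 and Tm6sf2, had 0.10, 0.06 and 0.08, with standard errors of 0.09, 0.07 and 0.35. The value of Tm6sf2 changed sign between settings: it was -0.636 against vehicle 2345 alone and -0.227 without the lens-rich libraries.

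**Figure D5:**
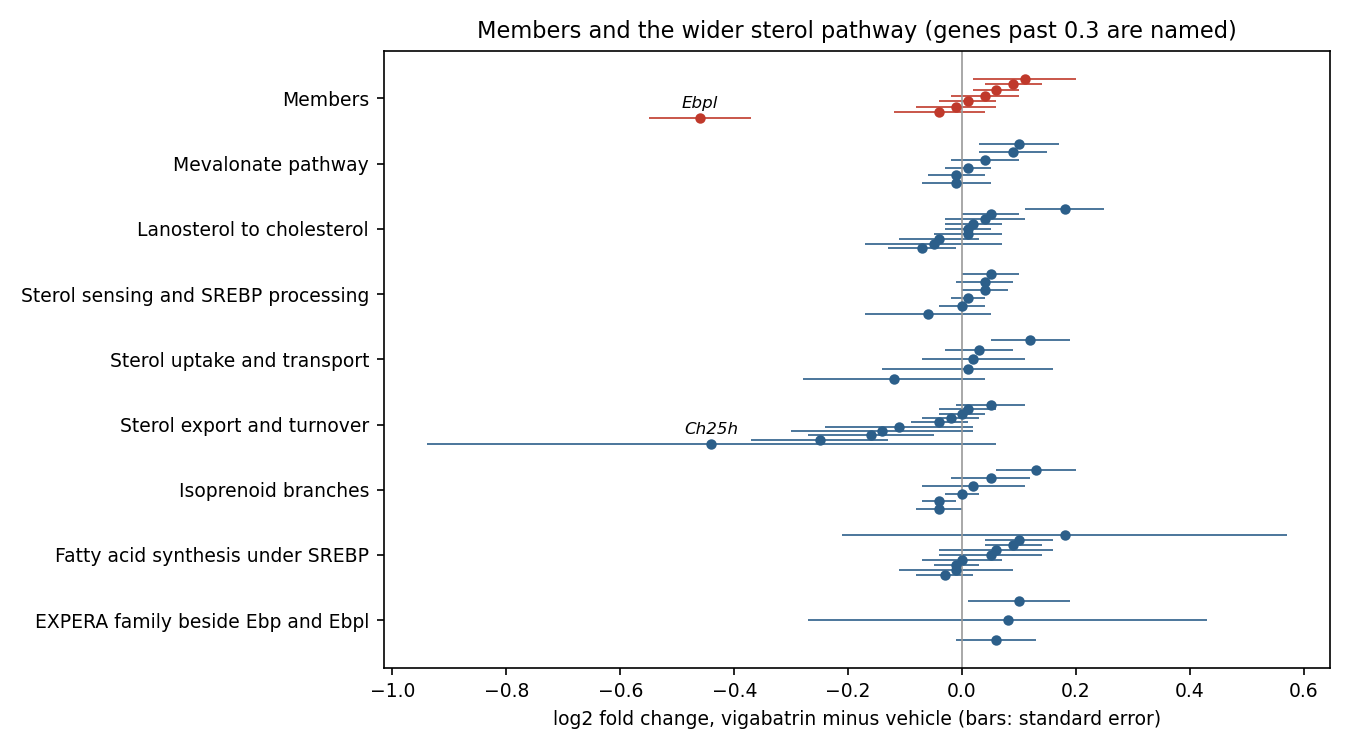
Log2 fold changes, vigabatrin minus vehicle (horizontal axis), with standard errors for the 8 members (red) and 54 further genes in 8 lists (blue), 1 point a gene. Ebpl at -0.46 and Ch25h at -0.44 are the only genes past 0.3 in either direction, and the standard error of Ch25h is 0.50.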

How the data were processed

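The authors deposited unnormalized read counts for each Ensembl gene in 10 retina libraries, which the submitters' processing notes link to HTSeq 0.6.1 and build mm10, with DESeq2 and edgeR 3.16.5 also named. Per the labels' protocols, retinas were frozen on dry ice and RNA was extracted with Qiazol. Aligner, annotation release and strand setting: not given in the sources used here. How reads from overlapping genes were counted is therefore not known. RPKM is the CPM divided by the gene length that the authors deposited. A further 1 count column fits no sample used here and was ignored. GENCODE M21 held 97.77% of the gene IDs, 99.84% of them at overlapping positions.

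Genes were kept by filterByExpr and compared by edgeR 4.0.16 with TMM scaling (quasi-likelihood test, group as the only term, Benjamini-Hochberg adjusted p under 0.05 over all genes; R 4.3.3). Standard errors were derived from the log2 fold change and its F statistic. The test was tried on simulated counts. Each library counted once. Pairs of libraries within a group differed by more than counting error (chi-square over its degrees of freedom between 8.46 and 139). That cannot show whether they came from different animals. Counts of 489 to 7677 per library lay behind the members.

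Members, lists, alternatives and the rule for named genes were chosen with earlier results of these data known. The rule named all members, the 3 genes of smallest p in each list (all in lists of up to 4), the 3 tested genes on each side of Ebpl and the 5 genes most like Ebpl and Hmgcs1; 2 genes that it selects are not reported here, and Ch25h and St8sia2 were named after their values were seen. Alternatives were DESeq2 1.42.0, limma-voom (limma 3.58.1) with quality weights, other scalings, no filter, leaving out each library or the 4 lens-rich ones, and the title number range as a term. Promoter sequences are from RefSeq, and near-identical copies were sought with BLAST among GENCODE M21 transcripts.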

Additional observations from a re-analysis of the deposited data

Results flagged for a closer look

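Among 72 groups of 5 libraries examined for the members, the named pathway genes and the neighbours of Ebpl, 7 contained a library that stood apart from its group. Chance flags about 1 in 20 groups, but this count cannot be read against that rate: the Ebpl value helped to choose the gene, and 3 of the 7 come from 1 library, vehicle 835. Ebpl was low in vehicle 2345, at 75.4 CPM against 99.5 to 108 in the other vehicle libraries. The same library was high for Hmgcs1, at 154 CPM against 126 to 131. Vigabatrin 2349 was high for Cyp51 (54.0 CPM, the other 4 at 51.2 to 51.9), and vigabatrin 2429 was low for Dhdds (62.9 CPM, the other 4 at 66.8 to 68.3). Vehicle 835, which had the largest sum of pigment epithelium markers, was high for 3 neighbours of Ebpl: Kpna3 at 94.6 CPM against 70.7 to 77.2, Arl11 at 1.85 CPM against 0.374 to 0.469, and RP24-188N22.2 at 2.35 CPM against 0.11 to 0.307. The part of that tissue in these values was not tested. Arl11 lies within the span of RP24-188N22.2, on the opposite strand, so the flags of this pair do not come from separate places in the genome.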

How the results depend on the processing

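No paired analysis was possible because the groups share no replicate numbers. Under all 17 settings 0 of the 54 pathway genes passed, and Ebpl had a negative log2 fold change, from -0.55 to -0.43 with 1 library left out and -0.08 once title number range was a term. Under that term the other 7 members were all negative, from -0.19 for Idi1 to -0.01 for Fdft1, against -0.04 to 0.11 over all libraries. The count of genes past the threshold was 1 higher and 0 lower in the main analysis, 0 higher with library totals, no filter, the title number range or without the 4 lens-rich libraries, 3 with limma-voom, and 36 higher and 49 lower with DESeq2. With 1 library left out it was 0 to 13 higher and 0 to 26 lower, the highest both without vehicle 2345. The order of levels in vehicle kept 6 to 8 of 8 ranks with 1 vehicle library left out.

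In the fit that holds title number range fixed and so compares vigabatrin with vehicle 2345, the sign turned for Mvd (-0.064), Acat2 (-0.093), Mvk (-0.054), Lbr (0.009), Dhcr7 (-0.072), Srebf2 (-0.046), Mbtps1 (-0.040), Stard4 (-0.127), Npc2 (0.180), Npc1 (-0.114), Cyp27a1 (0.039), Ggps1 (-0.020), Coq2 (0.036), Dhdds (0.0037), Fasn (-0.106), Tmem97 (-0.088), Tm6sf2 (-0.636), Kpna3 (0.031) and RP24-188N22.2 (0.627). Without the lens-rich libraries it turned for Dhcr7 (-0.015), Mbtps1 (-0.046), Npc1 (-0.066), Tm6sf2 (-0.227), Kpna3 (0.0017) and RP24-188N22.2 (0.456), the last also with limma-voom (0.357). With 1 library left out, Mvk ranged up to 0.065, Npc2 down to -0.214, Npc1 up to 0.069, Tm6sf2 up to 0.322 and RP24-188N22.2 down to -1.178. Without vehicle 835 the sign turned for Mvk (-0.0019), Npc2 (0.021), Npc1 (-0.006), Tm6sf2 (-0.158) and RP24-188N22.2 (0.695); without vehicle 1582 for Npc1 (-0.0046); without vigabatrin 2349 for Tm6sf2 (-0.0035). The cause was not tested.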
